A study of Mus musculus with 8 samples.

Results

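The genes of sialic acid transfer were examined in CD8 T cells of 4 in vitro conditions. They were 9 sialyltransferases (St6gal1, St3gal1, St3gal2, St3gal3, St3gal4, St3gal5, St3gal6, St8sia1 and St8sia4) and Gcnt1, a neighbouring enzyme of O-glycan synthesis, making 10 of the 24303 genes of the deposited RNA-Seq table. They were taken by symbol, and the family was chosen by an earlier result of these data: St6gal1 was among the largest decreases in dysfunctional cells. Values that compare T_Dysf with another condition are therefore given as descriptions, without a p-value for these 10 genes.

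All cells were splenic CD8 T cells of P14 mice, which carry a transgenic TCR for the GP33 peptide of LCMV on a C57BL/6 background, and all were first activated for 2 days with anti-CD3 plus anti-CD28 and then grown with IL-2 and IL-15. Effector cells were collected on day 7, and the other conditions on day 19. In its flow cytometry the paper marks effector cells of day 7 as 7d-stim, whereas the sample labels do not give the peptide exposure of Effector. Acute-2d cells received no peptide after day 2, Acute-7d cells were peptide-free from day 7, and dysfunctional cells (T_Dysf) were given GP33 repeatedly, with TGF-β1 added from day 7. Each condition had 2 libraries of sorted cells. The study describes the libraries of a condition as biological replicates, without saying whether they came from separate mice or from separate cultures. The p-values measure the spread between these libraries, part of which may be technical. All conditions are culture models, and in T_Dysf the peptide and TGF-β1 cannot be told apart. By the paper's account, T_Dysf cells were isolated during stimulation and the acutely stimulated cells after rest. This difference also cannot be told apart from the conditions.

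Depth was 19382147 to 24856224 reads on genes per library. The names of 3 libraries carried the prefix RESUB, which the labels do not explain: both Effector libraries and Acute-7d replicate 1. These 3 libraries also stood apart in sex-linked RNA, with 53.5 to 115 normalized counts of Xist and 1334 to 2161 of the Y-linked Ddx3y, whereas the other 5 had 21871 to 30427 of Xist and at most 2.59 of Ddx3y, a check added after the data were seen. The prefix, the sex of the cells and the Effector condition therefore cannot be told apart in Effector against Acute-2d or T_Dysf. For comparisons with Acute-7d, differences within libraries of 1 prefix rest on 1 Acute-7d library and are given for only some of the 10 genes. CD8 T cell identity was clear in every library, with 10 T cell markers at a summed 86999 to 153469 normalized counts and Cd8a at 11170 to 36163. These markers moved in both directions in T_Dysf. Cd3e (24506 and 24788) and Cd3g (37130 and 32348) were above every other library there. Cd2 (3439 and 3478) and Cd5 (691 and 694) were below every other library. Of the B cell markers, Ms4a1 was at 1.01 to 13.0 normalized counts and Pax5 at 5.40 to 17.4 over the 8 libraries, whereas Ighm was at 2364 to 7385, Cd79b at 30.1 to 138 and Ighd at 10.8 to 114. Of the CD4 T cell markers, Cd4 was at 1.01 to 13.0, Cd40lg at 0 to 13.0 and Foxp3 at 2.15 to 49.5, whereas Zbtb7b was at 1041 to 1625. Since the samples are bulk RNA, fewer cells using a gene and less of its RNA per cell cannot be told apart.

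Sialyltransferases move sialic acid from its activated form, CMP-sialic acid, to the ends of glycan chains in the Golgi. The linkage they make sets which lectins can bind: ST6GAL1 puts sialic acid in α2,6 linkage on N-glycans, the form that CD22 binds, the ST3GAL enzymes make α2,3 linkages on N-glycans, O-glycans or glycolipids, and the ST8SIA enzymes add sialic acid to sialic acid. On CD8 T cells the balance is known to change with activation, when ST3GAL1 and the core 2 enzyme GCNT1 compete for the same core 1 O-glycans of CD43 and CD45. ST6GAL1 is best known in B cells and hepatocytes.

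St6gal1 and Gcnt1 are shown first by sequence, because their means in T_Dysf lay farthest from those of the other conditions, in fold. St6gal1 spans chr16:23224740-23360350 on the + strand of GRCm38, and RefSeq gives it 3 start sites, lying 1281 and 64449 bases apart. The windows from 250 bases before to 50 bases after each start (RefSeq, GRCm38.p6, + strand) are given 5′ to 3′, with matches to 4 motif words in capitals.
St6gal1 start 1, chr16:23224490-23224789: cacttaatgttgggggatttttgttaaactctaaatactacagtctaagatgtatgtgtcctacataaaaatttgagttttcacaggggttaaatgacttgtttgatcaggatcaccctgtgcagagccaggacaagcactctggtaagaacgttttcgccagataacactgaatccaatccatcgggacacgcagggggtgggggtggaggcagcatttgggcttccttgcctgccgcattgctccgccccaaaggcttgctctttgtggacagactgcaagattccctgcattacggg
St6gal1 start 2, chr16:23225771-23226070: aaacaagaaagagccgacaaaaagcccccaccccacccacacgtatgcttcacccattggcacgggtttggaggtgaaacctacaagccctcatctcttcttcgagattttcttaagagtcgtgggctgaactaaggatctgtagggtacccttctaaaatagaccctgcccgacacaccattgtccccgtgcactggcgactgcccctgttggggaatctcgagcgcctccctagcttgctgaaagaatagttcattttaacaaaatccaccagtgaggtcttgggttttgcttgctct
St6gal1 start 3, chr16:23290220-23290519: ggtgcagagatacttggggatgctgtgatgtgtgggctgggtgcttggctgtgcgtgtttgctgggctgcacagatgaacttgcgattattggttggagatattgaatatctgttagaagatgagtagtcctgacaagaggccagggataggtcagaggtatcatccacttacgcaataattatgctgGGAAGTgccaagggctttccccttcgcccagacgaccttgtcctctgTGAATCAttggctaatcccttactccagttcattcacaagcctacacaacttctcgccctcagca
The words searched on both strands were CTTTGA for TCF/LEF, TGTGGT for RUNX, TGANTCA for AP-1 and GGAAGT for ETS. Of 32851 mouse windows of the same length, 16% held the TCF/LEF word, 16.8% the RUNX word, 7.81% the AP-1 word and 23.8% the ETS word. The last St6gal1 window held 1 AP-1 match at -15 and 1 ETS match at -62 from the start site, and the other windows held no match. A match is only a description of the letters, and the deposited values are per gene, so which start was used cannot be told. Gcnt1 spans chr19:17326141-17372844 on the - strand and also has 3 starts in RefSeq, 16177 and 17162 bases apart.
Gcnt1 start 1, chr19:17372795-17373094: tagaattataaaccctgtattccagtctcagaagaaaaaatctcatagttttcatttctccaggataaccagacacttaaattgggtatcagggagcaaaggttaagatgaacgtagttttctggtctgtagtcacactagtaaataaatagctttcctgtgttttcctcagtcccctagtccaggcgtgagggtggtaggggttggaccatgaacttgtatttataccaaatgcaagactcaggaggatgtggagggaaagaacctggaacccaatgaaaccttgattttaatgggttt
Gcnt1 start 2, chr19:17356618-17356917: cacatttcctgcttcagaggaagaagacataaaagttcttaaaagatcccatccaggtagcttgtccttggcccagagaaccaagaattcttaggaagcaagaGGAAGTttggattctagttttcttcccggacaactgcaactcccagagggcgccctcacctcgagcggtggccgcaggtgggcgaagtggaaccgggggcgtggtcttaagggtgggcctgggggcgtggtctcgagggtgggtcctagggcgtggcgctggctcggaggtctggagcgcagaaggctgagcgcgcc
Gcnt1 start 3, chr19:17339456-17339755: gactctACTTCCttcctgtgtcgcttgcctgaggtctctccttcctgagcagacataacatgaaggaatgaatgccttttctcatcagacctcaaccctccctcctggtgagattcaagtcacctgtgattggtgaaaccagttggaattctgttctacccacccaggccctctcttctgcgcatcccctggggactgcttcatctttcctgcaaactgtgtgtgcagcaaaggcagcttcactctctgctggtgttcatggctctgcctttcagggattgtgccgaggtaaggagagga
Of the Gcnt1 windows, given on the - strand from the most upstream, the last pair each held 1 ETS match, at -147 and -244 from the start site. Over the family, 8 of the 10 genes had windows in the set of RefSeq starts used here, 13 in all, and St3gal1 and St3gal2 had none in it.

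St6gal1 had the widest range of the family. Its normalized counts were 374 and 607 in Effector, 1726 and 1597 in Acute-2d, 509 and 467 in Acute-7d, and 7.77 and 0 in T_Dysf. Acute-2d was highest in both libraries, Effector and Acute-7d overlapped, and both T_Dysf libraries lay below every other library. In T_Dysf these values stand for 9 reads in replicate 1 (95% Poisson interval 4.12 to 17.1, counting error only) and 0 in replicate 2, where 3 reads would be 2.67 normalized counts. The T_Dysf mean of 3.88 ± 5.49 (SD, n = 2) was 126-fold below Acute-7d, 428-fold below Acute-2d and 126-fold below Effector, and these folds rest on 9 reads.

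The fitted St6gal1 difference on the log2(normalized count + 1) scale was -7.37 (SE 1.03) in T_Dysf against Acute-7d, -9.13 against Acute-2d and -7.33 against Effector. Its size depends on the pseudocount, at -9.10 against Acute-7d with a pseudocount of 0.1 and -5.22 with 10. Among libraries without the prefix, which include 1 Acute-7d library, the difference from Acute-7d was -7.30. In fits of the 2 groups compared, St6gal1 was not called in any of the 3 T_Dysf comparisons, although its T_Dysf values lay below all others. Over the table, 5.57% of genes were called in T_Dysf against Acute-7d, 7.35% against Acute-2d and 9.22% against Effector, where a called gene passed limma with an adjusted p (Benjamini-Hochberg) under 0.05 and differed by 2-fold or more. Nothing is read from these shares for the family, since T_Dysf chose it.

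Among the comparisons that did not choose the family, St6gal1 was lower in Acute-7d (488 ± 29.9, n = 2) than in Acute-2d (1661 ± 91.5, n = 2), by 3.41-fold. In limma over all 8 libraries the difference of -1.77 (SE 1.03) was not called, with an adjusted p of 0.829. That fit uses 1 spread for all conditions, and for St6gal1 the spread came mostly from the T_Dysf pair of 9 and 0 reads. In a limma fit of Acute-7d and Acute-2d alone the same difference had an SE of 0.08 and an adjusted p of 0.0482 and was called. A limma fit without T_Dysf, added after the data were seen, gave an SE of 0.26 and an adjusted p of 0.387, so the call depended on which libraries set the spread. Without the RESUB library, which leaves 1 Acute-7d library, the difference was -1.83. Effector was also below Acute-2d, with a log2 difference of -1.80 and a limma adjusted p of 0.328 over all 8 libraries, 0.118 in a fit of the 2 groups and 0.0473 without T_Dysf, the last of which alone was called, whereas the Effector and Acute-7d libraries overlapped.

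**Figure D1:**
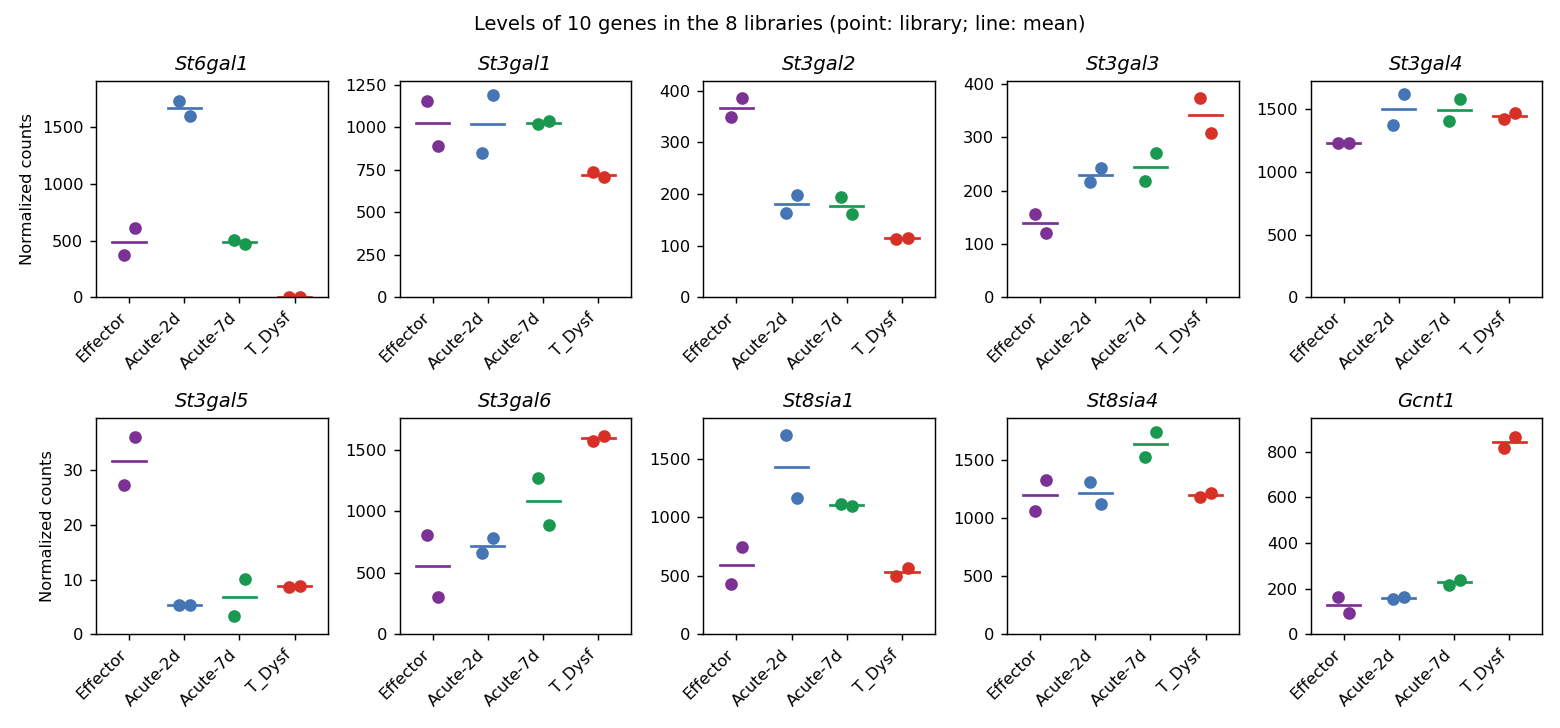
Normalized counts of the 10 genes in the 8 libraries, 1 panel per gene with the vertical axis from 0 (points: libraries; lines: means of 2). St6gal1 was at 7.77 and 0 in T_Dysf and at 1726 and 1597 in Acute-2d, while Gcnt1 was at 818 and 866 in T_Dysf and at most 237 elsewhere.

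Gcnt1, which starts the core 2 branch of O-glycans, ran the other way. It was at 161 and 93.3 normalized counts in Effector, 155 and 162 in Acute-2d, 216 and 237 in Acute-7d, and 818 and 866 in T_Dysf. T_Dysf was above every other library, Acute-7d came next without overlap, and Acute-2d and Effector overlapped. The T_Dysf mean was 3.71 times that of Acute-7d, 5.32 times that of Acute-2d and 6.63 times that of Effector, with log2 differences of 1.89, 2.40 and 2.77 (SE 0.26). In the libraries without the prefix, which include 1 Acute-7d library, the difference from Acute-7d was 1.82. Between conditions other than T_Dysf no Gcnt1 difference was called, the largest being Effector below Acute-7d by 0.88 on the log2 scale (limma adjusted p = 0.0911).

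St3gal1 and St3gal2 sialylate core 1 O-glycans and related chains of glycolipids. St3gal1 was at 1157 and 892 in Effector, 851 and 1188 in Acute-2d, 1018 and 1039 in Acute-7d, and 739 and 706 normalized counts in T_Dysf. The first 3 conditions overlapped, and both T_Dysf libraries were below them, with a mean 0.702 times that of Acute-7d. St3gal1 was not called in any of the 6 comparisons.

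St3gal2 was at 349 and 385 normalized counts in Effector, 163 and 198 in Acute-2d, 194 and 161 in Acute-7d, and 114 and 116 in T_Dysf. Effector was highest and T_Dysf lowest without overlap, and Acute-2d and Acute-7d overlapped. St3gal2 rose in Effector against Acute-2d by 1.03 on the log2 scale (SE 0.15, limma adjusted p = 0.0190) and against Acute-7d by 1.05 (SE 0.15, limma adjusted p = 0.0204). Both were just past the fold of 2. Within the RESUB libraries, which include 1 Acute-7d library, the Effector difference from Acute-7d was 0.91, below that fold. Without T_Dysf in the fit the adjusted p was 0.0507 against Acute-2d and 0.0543 against Acute-7d in limma, and neither was called.

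St3gal3, St3gal4 and St3gal6 act on the galactose ends of N-glycans and on the precursors of sialyl Lewis x, the sugar that selectins bind. St3gal3 was at 156 and 121 normalized counts in Effector, 217 and 242 in Acute-2d, 218 and 271 in Acute-7d, and 374 and 309 in T_Dysf. Only Acute-2d and Acute-7d overlapped, with Effector lowest and T_Dysf highest. The T_Dysf mean was 2.46 times that of Effector (log2 difference 1.30, SE 0.19) and 1.40 times that of Acute-7d.

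St3gal4 stayed in a narrow range. It was at 1230 in both Effector libraries, 1376 and 1622 in Acute-2d, 1405 and 1579 in Acute-7d, and 1423 and 1473 normalized counts in T_Dysf. Effector was lowest without overlap and the other conditions overlapped, and the means farthest apart were 1230 in Effector and 1499 in Acute-2d. Its exons share 412 bases with 4930581F22Rik on the opposite strand, which itself ranged from 529 to 1761. Whether strand was used in the counting is not given in the sources used here, so reads of the shared bases cannot be told apart and the St3gal4 level is uncertain.

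St3gal6 was at 810 and 303 normalized counts in Effector, 662 and 779 in Acute-2d, 1272 and 891 in Acute-7d, and 1573 and 1610 in T_Dysf. T_Dysf was above every other library and Acute-7d above Acute-2d, while Effector, whose 2 libraries lay farthest apart, overlapped Acute-2d. The T_Dysf mean was 1.47 times that of Acute-7d, 2.21 times that of Acute-2d and 2.86 times that of Effector, but no difference was called over all genes (SE 0.49 on the log2 scale), and that from Effector was called with genes of a mean under 50 left out before the fit. St3gal6 shares 1603 exonic bases with Dcbld2 on the opposite strand, which was at 21.1 to 78.0 normalized counts.

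Ganglioside synthesis uses other members of the family. St3gal5, which makes GM3, the first ganglioside of the series, was at 27.4 and 36.1 normalized counts in Effector, 5.27 and 5.40 in Acute-2d, 3.35 and 10.1 in Acute-7d, and 8.63 and 8.90 in T_Dysf. Effector was above all others, which overlapped from 3.35 to 10.1, a range of 3 to 10 reads. It rose in Effector against Acute-2d by 2.36 on the log2 scale (SE 0.53, limma adjusted p = 0.0467), a 5.96-fold difference of means. Against Acute-7d the difference of 2.23 did not pass (limma adjusted p = 0.0544). Within the RESUB libraries it was 2.90, resting on 1 Acute-7d library with 3 reads. With 1 library left out at a time it ran from 1.55 to 2.90.

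St8sia1, the GD3 synthase that acts on the product of St3gal5, was at 432 and 750 normalized counts in Effector, 1703 and 1163 in Acute-2d, 1117 and 1096 in Acute-7d, and 501 and 568 in T_Dysf. Acute-2d and Acute-7d were the higher pair of conditions, Effector and T_Dysf overlapped below them, and Acute-2d stood above Acute-7d by a narrow gap of 1163 to 1117. Effector was lower than Acute-2d by 1.30 on the log2 scale (SE 0.32), just outside the threshold with a limma adjusted p of 0.0560. With genes of a mean under 50 normalized counts left out before the fit it was called (limma adjusted p = 0.0102). The T_Dysf log2 differences were -1.40 from Acute-2d and -1.05 from Acute-7d, and neither was called over all genes, although both were with that filter. In Acute-2d both St8sia1 and St6gal1 were at their highest. St8sia4, which makes polysialic acid, was at 1066 and 1328 in Effector, 1310 and 1126 in Acute-2d, 1531 and 1744 in Acute-7d, and 1182 and 1218 normalized counts in T_Dysf. Acute-7d was highest without overlap and the other 3 conditions overlapped, and no St8sia4 difference was called.

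Calls among the 10 genes were counted beside those of the whole table. In Effector against Acute-2d, where 8.78% of all genes were called, 2 of the 10 were called, St3gal2 and St3gal5, both higher. In Effector against Acute-7d, where 8.06% of all genes were called, 1 of the 10 was called, St3gal2. In Acute-7d against Acute-2d, where 0.169% of all genes were called, 0 of the 10 were called by limma. By limma's unadjusted p, St8sia4 alone passed 0.05 there, at less than a fold of 2, and 0 passed with a fold of 2. The median log2 difference of the 10 genes was -0.32, -0.37 and 0.06 in these comparisons, against 0.02, 0.02 and 0.00 over all genes with a mean of at least 50 normalized counts. In the comparisons that chose the family, 2 of 10 were called in T_Dysf against Acute-7d and against Acute-2d, Gcnt1 higher and St6gal1 lower, and 4 of 10 against Effector, with St3gal3 also higher and St3gal2 also lower. These counts describe values that chose the family and are no test of it. In the other comparisons single libraries decided several calls. St3gal2 was not called in Effector against Acute-2d without Effector replicate 2, Acute-2d replicate 1 or either T_Dysf library, nor against Acute-7d without Effector replicate 2 or any 1 library of Acute-7d or T_Dysf, and St3gal5 was not called without any 1 library of Effector, Acute-2d or T_Dysf. All 10 genes were in the table, and St3gal5 alone averaged under 50 normalized counts.

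**Figure D2:**
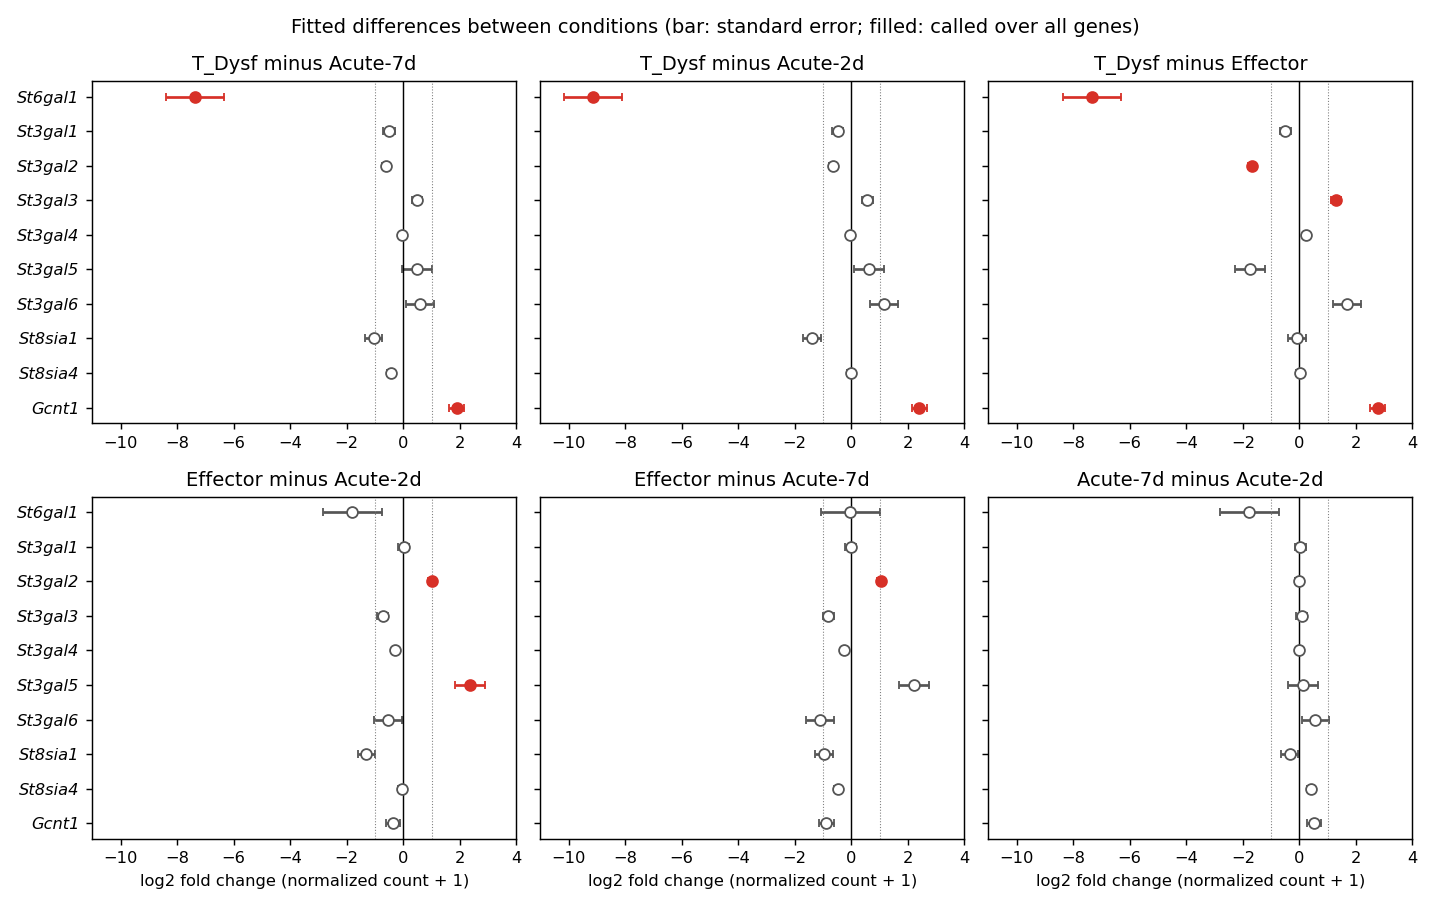
Fitted log2 differences of the 10 genes in the 6 comparisons (points: limma estimates on log2(normalized count + 1); bars: standard errors; filled points: called over all 24303 genes; dotted lines: a fold of 2). St6gal1 lay at -7.37, -9.13 and -7.33 in the T_Dysf comparisons, which chose the family, and Gcnt1 at 1.89, 2.40 and 2.77.

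Levels of different genes were compared per kilobase of transcript. St3gal4 ranked 1 of 10 in every condition, at 587, 716, 712 and 691 normalized counts per kilobase in Effector, Acute-2d, Acute-7d and T_Dysf, within the limit set by its overlapping gene. St6gal1 ranked 5, 2, 6 and 10 in the same order. Its share of the summed level of the 10 genes was highest in Acute-2d at 19.6%, then 7.92% in Effector, 6.23% in Acute-7d and 0.0498% in T_Dysf. Gcnt1 ranked 9, 9, 8 and 3, with 2.01%, 1.82%, 2.84% and 10.6% of the sum. When lengths were taken from the union of exons instead, St6gal1 ranked 3, 2, 5 and 10, and Gcnt1 kept its ranks.

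Ratios within a library do not depend on its scaling. St6gal1 over St3gal4, an α2,6 against an α2,3 enzyme per kilobase, was 0.141 and 0.229 in Effector, 0.583 and 0.458 in Acute-2d, 0.168 and 0.137 in Acute-7d, and 0.00254 and 0 in T_Dysf. Gcnt1 over St3gal1, the pair that competes for core 1 chains, was 0.173 and 0.130 in Effector, 0.226 and 0.170 in Acute-2d, 0.265 and 0.284 in Acute-7d, and 1.38 and 1.53 in T_Dysf. The Gcnt1 level was above that of St3gal1 in both T_Dysf libraries and in none of the other 6, also with lengths from the union of exons (1.32 and 1.46 in T_Dysf). St8sia1 over St8sia4 was highest in Acute-2d, at 1.45 and 1.15, and ran from 0.452 to 0.814 in the other libraries. Its size depends on the length used: with the union of exons it was 2.80 and 2.22 in Acute-2d and 0.872 to 1.57 elsewhere, so which of this pair had the higher level cannot be told. These are ratios of RNA, and no enzyme activity or glycan was measured.

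**Figure D3:**
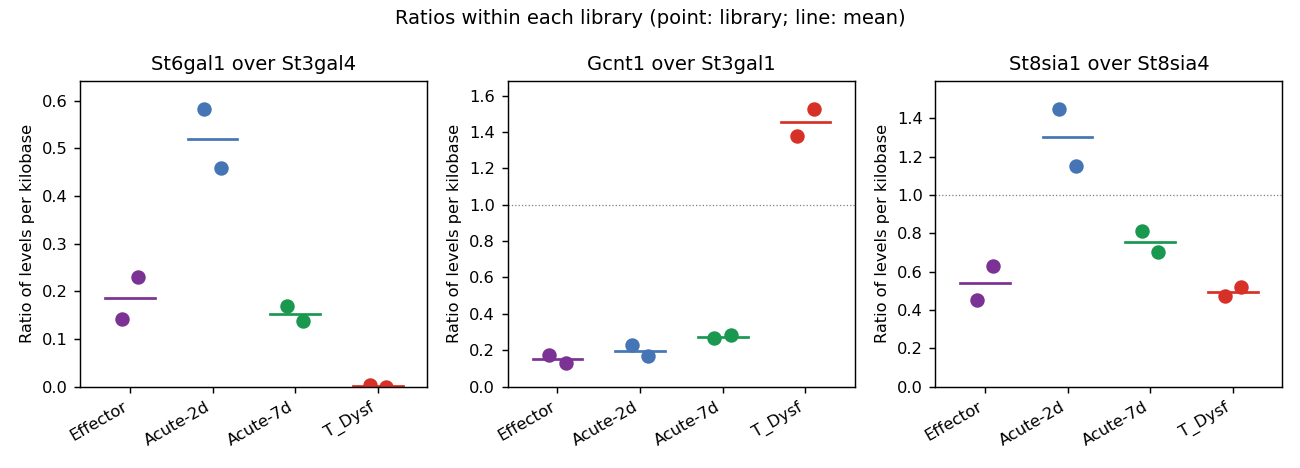
Ratios of levels per kilobase within each library for 3 pairs of genes (points: libraries; lines: means of 2; dotted line: equal levels by transcript length). Gcnt1 over St3gal1 was 1.38 and 1.53 in T_Dysf and at most 0.284 in the other 6 libraries.

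The 5 genes whose pattern was most like that of St6gal1, by Pearson's r of log2(normalized count + 1) over the 8 libraries and among 12027 genes with a mean of at least 50, were Kctd17 (r = 0.991), 4930417O13Rik (0.991), Chst15 (0.990), Lef1 (0.983) and Fam169b (0.982). The 8 points include both T_Dysf libraries and share the scaling of the table, so these values are a description. Lef1, a transcription factor of naive and memory T cells, was at 2046 and 2077 normalized counts in Effector, 3454 and 3297 in Acute-2d, 2281 and 2846 in Acute-7d, and 198 and 137 in T_Dysf. Chst15, a sulfotransferase of chondroitin sulfate, had a T_Dysf mean of 2.60 against 186 in Acute-2d. Among the 10 genes, r with St6gal1 ran from -0.914 for Gcnt1 to 0.759 for St3gal1.

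The rest of the glycan pathway was described with 9 lists of 88 genes, of which 81 were in the table. Of the 81, 60 averaged at least 50 normalized counts, against 12027 genes besides St6gal1 among the 24303 of the table. The shares below are thus not over genes of like level, and nothing is read from their differences. Against Acute-2d or T_Dysf, the Effector condition cannot be told apart from the prefix and sex, as given above. Against Acute-7d, no difference within libraries of the same prefix is given for the listed genes. Values from other fits are also not given for them. In fits of the 2 groups compared, 235 genes of the table were called in Effector against Acute-2d and 155 against Acute-7d. With all libraries in the fit these counts were 2135 and 1958. In T_Dysf against Acute-7d, 7 rose and 4 fell, 13.6% of the 81 against the 5.57% of all genes given above. Against Acute-2d 8 rose and 7 fell (18.5% against 7.35%), and against Effector 13 rose and 6 fell (23.5% against 9.22%). In Effector against Acute-2d 7 rose and 5 fell (14.8% against 8.78%), in Effector against Acute-7d 8 rose and 4 fell (14.8% against 8.06%), and in Acute-7d against Acute-2d limma called 0, where 0.169% of all genes were called.

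The donor pathway held the largest of these decreases. Cmah, the hydroxylase that turns N-acetyl into N-glycolyl sialic acid, was at 2026 and 1672 normalized counts in Effector, 3237 and 2347 in Acute-2d, 2527 and 2280 in Acute-7d, and 146 and 97.9 in T_Dysf. It fell in T_Dysf against Acute-7d by 4.32 on the log2 scale (SE 0.26, limma adjusted p = 0.00375) and against both other conditions. Of the 9 genes of sialic acid synthesis and transport, 1 rose and 1 fell against Acute-7d, the riser being Renbp (1.29, limma adjusted p = 0.0414). Nans, the synthase of sialic acid phosphate, rose in Effector against Acute-2d by 1.59 (limma adjusted p = 0.0116) and against Acute-7d by 1.31 (limma adjusted p = 0.0176). Gne, the first enzyme of the pathway, and the exporter Slc17a5 rose in T_Dysf against Effector, by 1.03 and 1.25 (limma adjusted p = 0.0214 and 0.0284).

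Of 8 other sialyltransferases in the table, 1 rose in T_Dysf against Acute-7d and 0 fell. This was St6galnac2, which adds α2,6 sialic acid to the inner sugar of O-glycans, at 169 and 172 normalized counts in T_Dysf against 6.14 to 25.2 in the other 6 libraries (3.65, SE 0.70, limma adjusted p = 0.0443). St6galnac6 rose in Effector, by 1.27 against Acute-2d and 1.17 against Acute-7d (limma adjusted p = 0.0170 and 0.0214).

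O-glycan and N-glycan genes moved in both directions. Of 15 genes of core 1 and core 2 O-glycans, 2 rose in T_Dysf against Acute-7d, B4galt5 (1.32, limma adjusted p = 0.0458) and Galnt3 (1.06, limma adjusted p = 0.0437). Both also rose in Effector against Acute-2d, by 2.35 and 2.31, and Galnt6 and Galnt10 fell there by 1.07 and 1.12. Of 14 genes of N-glycan branching and galactosylation, Mgat5, whose β1,6 branch can carry long galactose chains, rose in T_Dysf against Acute-7d by 1.37 (limma adjusted p = 0.0137) and against both other conditions. Man2a2 fell there (-1.24, limma adjusted p = 0.0397). Fut8, the core fucosyltransferase, and Mgat4a fell in Effector against Acute-2d, with log2 differences of -1.24 and -1.10.

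Of 5 genes of selectin ligand fucosylation and sulfation in the table, 0 rose and 2 fell in T_Dysf against Acute-7d. They were Chst2, which sulfates N-acetylglucosamine (-3.24, limma adjusted p = 0.0164), and Tpst1, which sulfates tyrosines (-2.76, limma adjusted p = 0.0278). Chst2 was at 33.7 and 75.6 normalized counts in T_Dysf and 275 to 500 in the other libraries. Fut4 rose in Effector by 2.07 against Acute-2d and 2.54 against Acute-7d (limma adjusted p = 0.0151 and 0.0130). Of the 4 ganglioside genes beyond the members, 0 were called in any comparison by limma.

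Of the sialidase list, Ctsa, the cathepsin that protects the lysosomal sialidase, rose in T_Dysf against Acute-7d by 1.38 (limma adjusted p = 0.0219), and the membrane sialidase Neu3 rose in Effector against Acute-7d by 1.03 (limma adjusted p = 0.0300). Of 8 carriers of these glycans, 1 rose in T_Dysf against Acute-7d, 1 rose and 1 fell against Acute-2d, and 3 rose and 1 fell against Effector. Spn (CD43) had its lowest mean in Acute-2d (8380 normalized counts) and its highest in Effector (13174), with 10561 in Acute-7d and 10555 in T_Dysf, and Ptprc (CD45) ranged in its means from 35958 to 47560, and neither was called in any comparison. Selplg, the selectin ligand PSGL-1, rose in T_Dysf against Effector by 1.02 (limma adjusted p = 0.0356), and Thy1 rose in T_Dysf against Acute-7d by 1.23 (limma adjusted p = 0.0162). Cd44, the receptor for hyaluronan, fell in T_Dysf against Effector (-1.25, limma adjusted p = 0.000579) and Acute-2d (-1.21, limma adjusted p = 0.000537), and Cd8a rose against Effector by 1.29 (limma adjusted p = 0.0443). Lgals1, a galectin that binds galactose ends, rose in Effector against Acute-2d by 1.48 (limma adjusted p = 0.0150). Of 12 Siglec and galectin genes, 4 averaged at least 50 normalized counts. In T_Dysf against Acute-7d 0 of the 12 were called, where 5.57% of all genes were called. Lgals3 was not called there (1.45, SE 0.71), but was at 6623 and 7462 in T_Dysf and 1062 to 4434 elsewhere.

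**Figure D4:**
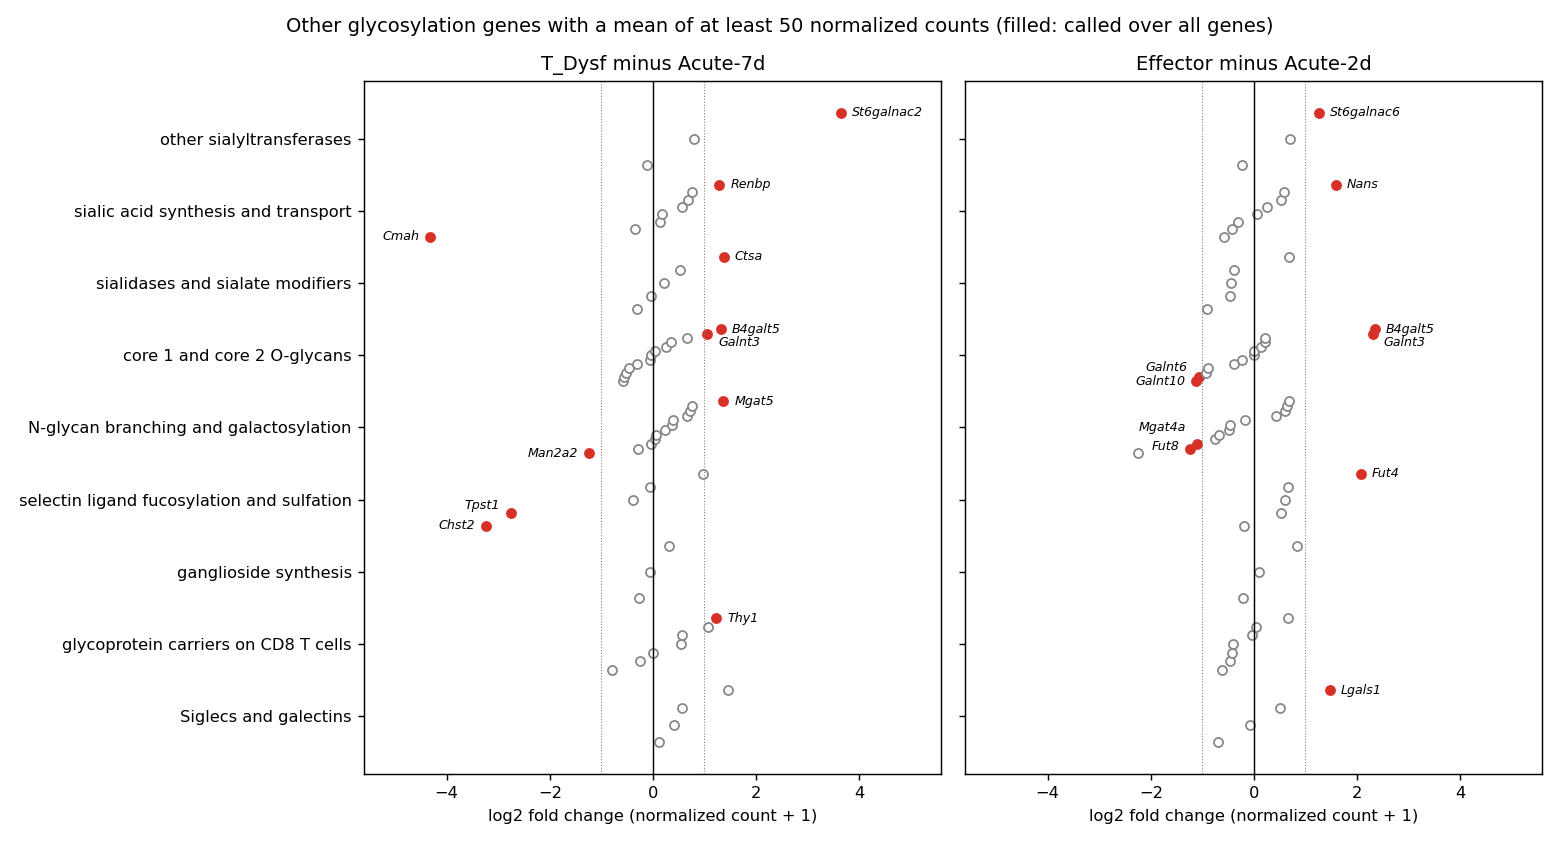
Log2 differences of glycosylation genes beyond the 10, by list, for genes with a mean of at least 50 normalized counts, in T_Dysf against Acute-7d and in Effector against Acute-2d (filled and named: called over all genes; dotted lines: a fold of 2). Cmah lay at -4.32 and St6galnac2 at 3.65 in T_Dysf against Acute-7d.

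Markers of other cells moved with some of these values. The 12 B cell markers, in which Ighm dominates, summed to 7064 to 7712 normalized counts in T_Dysf, 5888 to 6285 in Effector, 3646 to 3856 in Acute-2d and 2460 to 2503 in Acute-7d. Of the 12, 3 were called in T_Dysf against Acute-7d (Ighm, Ighd and Cd79b, all higher), where 5.57% of all genes were called. The highest of the rest was Ebf1, at 2.16 to 24.4. Of 5 plasma cell markers 3 rose, with Igha at 1086 and 1154 in T_Dysf and at most 9.03 elsewhere. Jchain and Sdc1 also rose, whereas Xbp1 was at 2072 and 2068 in T_Dysf and 1406 to 2181 elsewhere. Mzb1 was at 0.863 and 0 in T_Dysf and at most 4.01 elsewhere. The myeloid markers summed to 356 to 776 in the 8 libraries with 0 of 9 called in T_Dysf against Acute-7d. Of the 7 dendritic cell markers in the table, 0 were called there. At the share over all genes, lists this short can hold 0 calls, so nothing is read from these counts. Against Effector, the myeloid Csf1r was called higher and the dendritic Bst2 lower in T_Dysf. In Acute-2d replicate 1, however, Cd74 was at 2163 and H2-Aa at 549, against at most 521 and 172 in the other libraries. The 6 NK cell markers summed to 3251 to 3854 in T_Dysf, 3876 to 4671 in Acute-7d, 1702 to 1906 in Acute-2d and 2027 to 3050 in Effector. Of these, 3 were called in T_Dysf against Acute-7d. Fcer1g was at 924 and 1111 in T_Dysf and 53.5 to 182 elsewhere, Klri2 at 1024 and 787 against 59.1 to 395, and Ncr1 was lower, at 2.59 and 1.78 against 8.03 to 105. The part of these markers in St6gal1, Gcnt1, St6galnac2 and the other genes that differed in T_Dysf was not tested.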

How the data were processed

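RNA-Seq of 8 libraries was deposited as 1 table of 24303 genes, and no column was left out. In the authors' processing, STAR placed the reads on mm10, Partek Flow summed them over RefSeq transcripts, and the authors divided gene counts by the median-ratio size factors of DESeq2 before they deposited the table, so each value is a signal, called a normalized count here. A single read was valued at each library's commonest low value. Of values under 1000 reads, 73.2% to 75.8% were whole multiples of it within 0.02 reads in 7 libraries and 53.3% in T_Dysf replicate 1, so no count model was fitted. Per library, 3 reads correspond to 2.59 to 3.35 normalized counts.

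The test was limma 3.58.1 in R 4.3.3 on log2(normalized count + 1) over every gene, fitted once to the 8 libraries with 4 group means, no covariate, a trended prior and 4 residual degrees of freedom. Fold changes on this scale understate those of low genes. Alternatives were pseudocounts of 0.1 and 10, filters at 50, other scalings, fits of 2 groups, a replicate block, a term for the RESUB prefix, an unadjusted threshold, each library left out and, added after the data were seen, a fit without T_Dysf and ratios with lengths from the union of exons. The procedure was run on simulated data with normal noise, the same spread in every group and large differences. That run does not cover unequal spread between groups or differences near a fold of 2. The members and lists were chosen with earlier results of these data known. Named genes were the 10 members, other glycosylation genes with a mean of at least 50 normalized counts that were called in any comparison, Spn, Ptprc and Selplg, and the 5 genes most like St6gal1. Lgals3 was added after the data were seen. Gene lengths and overlaps were read from GENCODE on GRCm38 and start windows from RefSeq. Genes of the lists that were not in the table, and proteins, were not analysed here.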

Additional observations from a re-analysis of the deposited data

How the results depend on the processing

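The counts of members called depended on the fit. In T_Dysf against Acute-7d the 2 calls became 1, Gcnt1, with a pseudocount of 0.1 and 0 with a term for the RESUB prefix, which leaves 1 Acute-7d library to compare. Fits of the 2 groups gave 2 calls there and against Acute-2d too, with St8sia1 and St3gal6 respectively in the place of St6gal1. In T_Dysf against Effector the 4 became 1, St3gal2, in a fit of the 2 groups and 0 with the prefix term. In Effector against Acute-2d the 2 became 1, St3gal2, with a pseudocount of 0.1, 0 in a fit of the 2 groups, 0 with the prefix term and 1 without T_Dysf in the fit, where St6gal1 was called and St3gal2 and St3gal5 were lost. With filters at 50, which drop St3gal5, or quantile normalization the 2 were St3gal2 and St8sia1, with equal 75th percentiles St3gal5 and St8sia1, and with a pseudocount of 10 St3gal5 and St6gal1. St8sia1 was also called in T_Dysf against Acute-7d and Acute-2d with filters at 50, and against Acute-2d with each other scaling. In Effector against Acute-7d the 1 became 2 with a pseudocount of 10 or an unadjusted p, and 0 with equal 75th percentiles, quantile normalization, a fit of the 2 groups, the prefix term or no T_Dysf in the fit. In Acute-7d against Acute-2d the 0 became 1, St6gal1, in a fit of the 2 groups. Fits of 2 groups have fewer samples to set the spread. The cause of the other changes was not tested.

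Replicate numbers did not pair the libraries: over 6 pairs of groups the correlation of replicate differences ran from -0.199 to 0.197, and 2 were over 0.1. With a replicate block the Effector against Acute-2d calls went from 2 to 1, St3gal2.

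Leaving out 1 library at a time gave 0 to 2 calls in T_Dysf against Acute-7d, 0 to 4 against Acute-2d and 2 to 5 against Effector, 0 to 2 in Effector against Acute-2d, 0 to 3 against Acute-7d, and 0 to 0 in Acute-7d against Acute-2d. Against Acute-7d, both T_Dysf calls were lost without any 1 library of Acute-2d or Acute-7d, and that of Gcnt1 without either T_Dysf library. Against Acute-2d, both were lost without Acute-2d replicate 1, that of St6gal1 without Acute-2d replicate 2 and that of Gcnt1 without T_Dysf replicate 1. Against Effector, St3gal3 and St6gal1 were lost without Effector replicate 2, and St3gal3 and Gcnt1 without T_Dysf replicate 1. In Effector against Acute-2d, St6gal1 was the 1 call without either T_Dysf library.

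Differences near 0 turned direction under some settings, and all of these stayed uncalled. For Effector against Acute-2d, St3gal1 was at -0.081 with equal 75th percentiles, -0.091 with quantile normalization and -0.23 to 0.26 with 1 library left out, and St8sia4 was at 0.16 with the prefix term and -0.19 to 0.13 with 1 library left out. In the same comparison the range with 1 library left out was -1.25 to 0.17 for St3gal6 and -0.757 to 0.022 for Gcnt1. For Effector against Acute-7d it was -0.38 to 0.32 for St6gal1 and -0.21 to 0.17 for St3gal1. For Acute-7d against Acute-2d, St3gal4 was at 0.008 with equal 75th percentiles, 0.013 with equal totals and 0.08 with the prefix term, and St3gal2 at 0.042 with quantile normalization. With 1 library left out they ran from -0.12 to 0.11 and from -0.16 to 0.11, St3gal1 from -0.21 to 0.27, St3gal3 from -0.074 to 0.24 and St3gal5 from -0.54 to 0.81.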
